A study of Mus musculus with 16 samples.

Results

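General capillary cells high in Lpl and Cadm1 were described among single lung endothelial cells (EC) of female C57BL/6N mice. A cell was a member if it held at least 1 UMI (unique molecular identifier) of the capillary genes Gpihbp1 or Plvap and at least 2 detected genes of set A (Lpl, Cadm1, Sox11, Npr3). It also had to hold more detected genes of set A than of set B (Slc6a6, Wfdc1, Car14, Pcp4l1), and fewer than 2 of the aerocyte genes Ednrb, Fibin, Tbx2 and Chst1. The rule found 2320 members among 9036 cells. The measured counts themselves chose the members, so levels of these 14 gate genes are given as a description. The 4 days were d0 (wild-type mice), d15 (mice bearing a primary tumour), d22 (mice after resection of the tumour) and d36 (mice bearing metastases). The tumour arose from Lewis lung carcinoma cells, a mouse lung cancer line, placed under the skin. All mice were of 1 strain and sex, and no genetic change is given in the labels. The labels give EC sorted by fluorescence-activated sorting and a 10x Genomics Chromium 3′ version 2 kit for the libraries, so that transcript 3′ ends were counted. The labels list 16 samples, 4 libraries at each of the 4 days, but the cell names carry the day alone. Each day was therefore 1 pooled sample with no replicate of animals or libraries, and no difference below has a p-value.

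Capillaries of the lung hold general capillary cells, which repair the capillary bed, and aerocytes, the thin cells at the surface of gas exchange. General capillary cells carry GPIHBP1, the protein that holds lipoprotein lipase (LPL) at the vessel wall, where the lipase frees fatty acids from triglyceride-rich lipoproteins. Npr3 codes for the clearance receptor that removes natriuretic peptides, and Cadm1 for an immunoglobulin-type cell adhesion molecule. Sox11 codes for a transcription factor best known from development.

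By day, members numbered 767 of 2671 cells (d0), 339 of 1507 (d15), 909 of 3230 (d22) and 305 of 1628 (d36). The deposited values had an unusual form that touches every result. Of all nonzero values, 59.7% were multiples of 4, and 47.9% equalled 4. In 3954 genes detected in 50 to 300 cells, 54.8% of nonzero values equalled 4, 0.666% equalled 5 and 1.09% equalled 8. Each value was therefore divided by 4 and rounded up, and the result is called molecules. The sources used here do not say how the libraries of a day were combined, and the cause of the pattern was not tested. Summed over members, the days held 1880184 (d0), 526923 (d15), 2159562 (d22) and 500246 (d36) molecules. Median molecules per member were 2263, 1573, 2238 and 1632 at d0, d15, d22 and d36, so depth went with the day. The median number of genes per member was 1385, 1050, 1362 and 1061 on the same days. There were 36 barcodes found at more than 1 day, and 23 members carried such a barcode. Levels are CPM, counts per 1000000 molecules summed over the cells of a set at a day. Intervals are exact 95% binomial intervals. They cover counting error only, since they take molecules as independent and leave out the spread between cells and animals.

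The label's markers were present in the members, but all of them are gate genes, so the rule favoured this in advance. Gpihbp1 was at 1821, 2524, 2018 and 2205 CPM in members at d0, d15, d22 and d36, against 1424, 1904, 1712 and 1829 CPM in the other general capillary-gated cells. These other gated cells met the Gpihbp1 or Plvap and the aerocyte conditions but were no members, and numbered 1340, 927, 1672 and 1019. Gpihbp1 was detected in 88.5 to 95.3% of members by day. Lpl was at 444, 512, 402 and 516 CPM in members, against 147, 159, 128 and 160 CPM in other gated cells. Cadm1 was at 450, 638, 559 and 576 CPM in members, against 207, 217, 229 and 165 CPM in other gated cells. Sox11 was at 395, 613, 396 and 612 CPM in members, against 141, 176, 118 and 225 CPM in other gated cells. Like those of Lpl and Cadm1, its level was higher in members at d15 and d36, the days of low depth, than at d0 and d22. Members that held Sox11 had a mean of 1.52, 1.51, 1.45 and 1.44 molecules of it by day. The part of depth in these levels was not tested. Npr3 was at 340, 456, 229 and 322 CPM in members, against 95.1, 106, 55.9 and 90.1 CPM in other gated cells. The rule fixed the direction of the differences in the set A genes. For Gpihbp1 it did not, since both sets met the same Gpihbp1 or Plvap condition.

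**Figure D1:**
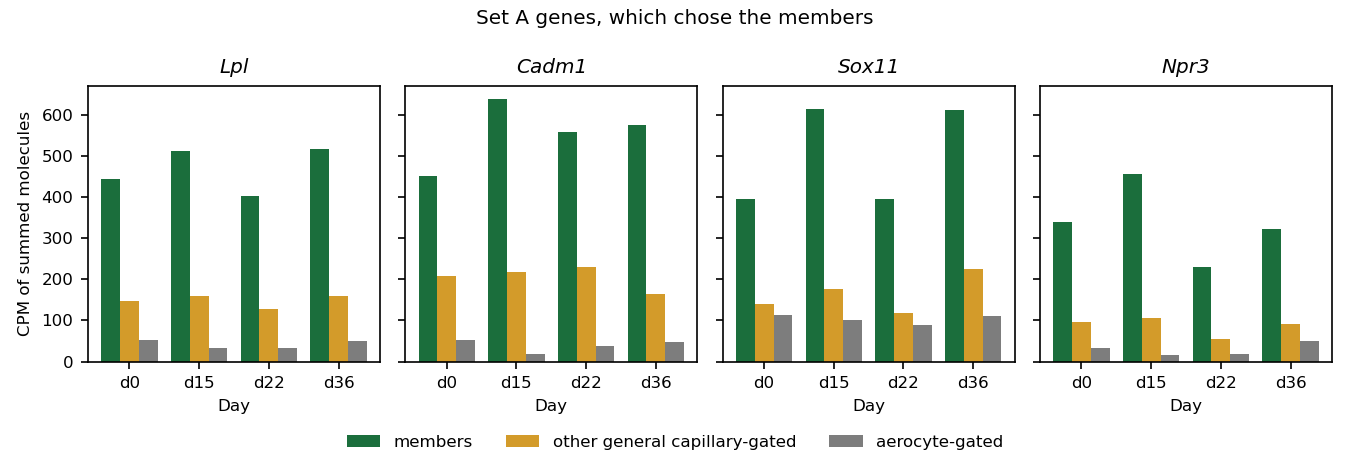
CPM of the 4 set A genes by day (x axis), as bars for members, other general capillary-gated cells and aerocyte-gated cells, each bar 1 pooled sample with no error bar. Members stand above the other gated cells at every day because the rule chose them by these genes, for example Lpl at 444 against 147 CPM at d0.

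Free RNA in droplets gives some detection in any cell, and the shares in aerocyte-gated cells (at least 2 of the aerocyte genes) are given beside those in members. Lpl was detected in 64.0, 58.4, 60.6 and 60.3% of members by day, against 11.4, 7.53, 8.62 and 7.69% of aerocyte-gated cells. Sox11 was detected in 63.9, 63.1, 64.7 and 69.8% of members, against 27.6, 19.2, 23.1 and 16.6% of aerocyte-gated cells. Members were shallower than aerocyte-gated cells at d0 (median 2263 molecules in members, against 3595), d15 (1573 against 1922) and d22 (2238 against 3730), and deeper at d36 (1632 against 1437). The rule fixed the direction of these differences too, so they support nothing about expression. Cadm1 was detected in 65.9 to 78.7% of members and 3.43 to 11.9% of aerocyte-gated cells, and Npr3 in 42.6 to 56.1% of members and 3.43 to 9.002% of aerocyte-gated cells.

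Most members held the minimum of set A. Exactly 2 of its genes were detected in 52.8, 63.7, 60.5 and 65.9% of members at d0, d15, d22 and d36, and all 4 in 10.0, 7.38, 7.81 and 4.59%. Cells with all 4 genes were deeper, with medians of 3020, 1800, 2688 and 2300 molecules against 2078, 1481, 2118 and 1461 in cells with 2 genes. The most frequent combination was Cadm1 with Sox11 alone (379 cells, 16.3% of members). Lpl, Cadm1 and Sox11 together followed (301 cells, 12.97%), then Lpl with Cadm1 (299 cells, 12.9%). All 4 genes were found in 187 cells (8.06%). Members were not free of set B: 43.6% had none of its genes, 46.3% had 1, 9.40% had 2 and 0.776% had 3. Members with exactly 2 set A genes had 336, 437, 333 and 427 CPM of Lpl. Gated cells just outside the rule, with 1 set A gene and none of set B, had 211, 306, 203 and 323 CPM. These cells just outside numbered 254, 239, 353 and 284 and were shallower, with medians of 1524, 911, 1778 and 860.5 molecules. In a set chosen by detection, a cell just outside may thus differ from a member by few molecules.

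Against all other cells of the same day, fewer genes were called higher in members than lower. Of 6659 genes measured outside the gate, 5 were at least 1.5-fold higher in members at all 4 days (0.0751%) and 92 were at least 1.5-fold lower (1.38%). With no condition on size, 1125 lay above 1 at all 4 days (16.9%) and 895 below (13.4%). A gene was measured at a mean of at least 20 CPM in either set, and a call needed an interval that excluded 1 at every day. The gate genes came from a grouping of these same cells, so this comparison is a description. The 5 higher genes were Ackr4, Slc24a4, Aplnr, Gpr182 and Iigp1. Among the lower genes were genes of aerocytes, of veins and arteries, and of lymphatic cells.

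Gpr182, an endothelial receptor that binds chemokines without signalling through G proteins, was at 365, 440, 334 and 352 CPM in members at d0, d15, d22 and d36, against 204, 243, 194 and 219 CPM in all other cells. Its mean log2 ratio, with 1 CPM added to each level, was 0.79 ± 0.08 (SD, n = 4 days). Gpr182 was higher in members at every day than in the other cells at any day, as choosing genes higher at all 4 days would favour. It was detected in 54.1, 46.6, 51.6 and 38.4% of members and in 16.8, 10.3, 11.9 and 9.47% of aerocyte-gated cells. Ackr4, a scavenger of the chemokines CCL19 and CCL21, was at 118, 93.0, 158 and 68.0 CPM in members, against 66.7, 39.8, 89.4 and 34.3 CPM in all other cells (log2 ratio 0.95 ± 0.18). Aplnr, the apelin receptor and a usual general capillary marker, was at 328, 254, 279 and 146 CPM in members, against 197, 133, 151 and 94.1 CPM (0.79 ± 0.14). Its level was lowest at d36 in both sets of cells. Slc24a4, a sodium, potassium and calcium exchanger, was at 19.7, 34.2, 24.5 and 49.98 CPM in members, against 12.3, 17.5, 15.7 and 17.5 CPM (0.91 ± 0.40). Iigp1, an interferon-inducible GTPase, was at 388, 304, 438 and 430 CPM in members, against 252, 189, 280 and 251 CPM (0.68 ± 0.07). With comparison cells weighted to the molecule distribution of the members, none of the 6659 genes was called higher, and at a ratio of 1.25 without weighting 35 were (0.526%). The genes added at 1.25 included Hey1, Dll1, Cd93, Lyve1, Fzd4 and Pltp.

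Aerocyte genes were low in members, as the aerocyte condition of the rule would favour. Car4, carbonic anhydrase of the aerocyte surface, was at 445, 480, 371 and 410 CPM in members, against 1999, 1534, 2136 and 1333 CPM in all other cells (log2 ratio -2.02 ± 0.41, SD, n = 4 days). Apln, the ligand of the receptor above, was at 18.1, 13.3, 15.3 and 11.99 CPM in members, against 163, 89.6, 161 and 75.2 CPM (-2.91 ± 0.36). Kdr, the main VEGF receptor, was at 196, 220, 196 and 182 CPM in members, against 453, 386, 465 and 382 CPM (-1.08 ± 0.20). Of the 6 aerocyte genes listed outside the gate, 5 were lower by the rule and all 6 lay below 1 at all 4 days, where 13.4% of measured genes did. Aerocyte-gated cells held 4269 to 5326 CPM of Car4 and 863 to 981 CPM of Kdr, and the part of their presence among the other cells in these ratios was not tested. Other lower genes of this kind were Itgb5 (-3.40 ± 0.27), Pcolce2 (-3.49 ± 0.61) and Rprml (-3.10 ± 0.31). Beside the other general capillary-gated cells, 5 aerocyte genes were measured and 0 were lower by the rule (0.391% of all measured genes were). Their median log2 ratio was -0.04, and 2 lay below 1 at all 4 days (8.95% of all did). Car4 was at 391, 405, 360 and 538 CPM in the other gated cells. Low aerocyte genes were thus shared with the cells most like the members.

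Antigen presentation genes were somewhat higher in members than in all other cells, below the size of the rule. All 13 measured MHC class I genes lay above 1 at all 4 days (median log2 ratio 0.26), where 16.9% of measured genes did and the median of all genes was 0.02. H2-K1, a class I heavy chain, was at 2318, 2329, 3125 and 2443 CPM in members, against 1863, 1856, 2563 and 1996 CPM in all other cells (0.30 ± 0.02, SD, n = 4 days). Of 6 measured class II genes, 5 lay above 1 at all 4 days (median 0.58). H2-Ab1, a class II chain, was at 691, 511, 1222 and 548 CPM in members, against 412, 317, 757 and 440 CPM (0.61 ± 0.20). All 9 measured general capillary genes also lay above 1 at all 4 days (median 0.39), and 12 of 21 interferon genes did (median 0.31). Aerocytes are among all other cells. Against the other general capillary-gated cells, 11 of 13 class I genes and 4 of 6 class II genes lay above 1 at all 4 days (11.6% of measured genes did), with medians of 0.17 and 0.13. The class II genes summed to 3027, 1518, 5959 and 1773 CPM in members, against 2700, 1235, 5696 and 1754 CPM in other gated cells.

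Set against the cells most like them, members differed little. Of 6648 genes measured against the other general capillary-gated cells, none was 1.5-fold higher at all 4 days (0.0%), 1 was 1.25-fold higher (0.015%), and 26 were 1.5-fold lower (0.391%). At 1.25, 34 were lower (0.511%). The single gene at 1.25, named after its value was seen, was Ifngr2, a chain of the interferon-gamma receptor. It was at 145, 161, 143 and 208 CPM in members, against 107, 116, 112 and 153 CPM in other gated cells (log2 ratio 0.42 ± 0.06, SD, n = 4 days). Gpr182 averaged 0.35 ± 0.13 and Aplnr 0.33 ± 0.17 in this comparison, with members above at all 4 days.

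Of the 26 lower genes, 6 were on the venous list, 2 on the arterial list and 1 on the lymphatic list. Vwf, which codes for von Willebrand factor of veins and larger vessels, was at 121, 144, 111 and 138 CPM in members, against 290, 353, 243 and 249 CPM in other gated cells (log2 ratio -1.13 ± 0.20, SD, n = 4 days). Vcam1, a leukocyte adhesion molecule, was at 38.3, 19.0, 42.6 and 23.99 CPM in members, against 211, 112, 132 and 95.6 CPM (-2.12 ± 0.42). No member value of Vwf or Vcam1 overlapped the values of the other gated cells, as choosing genes lower at all 4 days would favour. Mgp, matrix Gla protein of arteries, was at 48.9, 38.0, 46.8 and 40.0 CPM in members, against 355, 347, 345 and 184 CPM (-2.76 ± 0.42). Ccl21a, a chemokine of lymphatic EC, was at 53.2, 39.9, 63.9 and 23.99 CPM in members, against 885, 749, 457 and 77.4 CPM (-3.17 ± 1.19). Bgn, the matrix proteoglycan biglycan, averaged -1.58 ± 0.25, and Gsn, the actin-severing gelsolin, -2.89 ± 0.62. Of the 10 measured venous genes, 6 were lower by the rule and 9 lay below 1 at all 4 days (median -1.31), where 8.95% of measured genes did. The venous genes summed to 530 to 599 CPM in members by day and to 1029 to 1628 CPM in other gated cells. Of 13 arterial genes, 2 were lower by the rule and 7 lay below 1 at all 4 days (median -0.62). In members, 1, 4, 0 and 4 of the 7 lymphatic genes were at 0 at d0, d15, d22 and d36, and most of the list's sum of 740 to 907 CPM was Lyve1 (688 to 845 CPM), which capillary cells also carry. The part that a mixture of vessel types among the other gated cells has in these ratios was not tested.

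**Figure D2:**
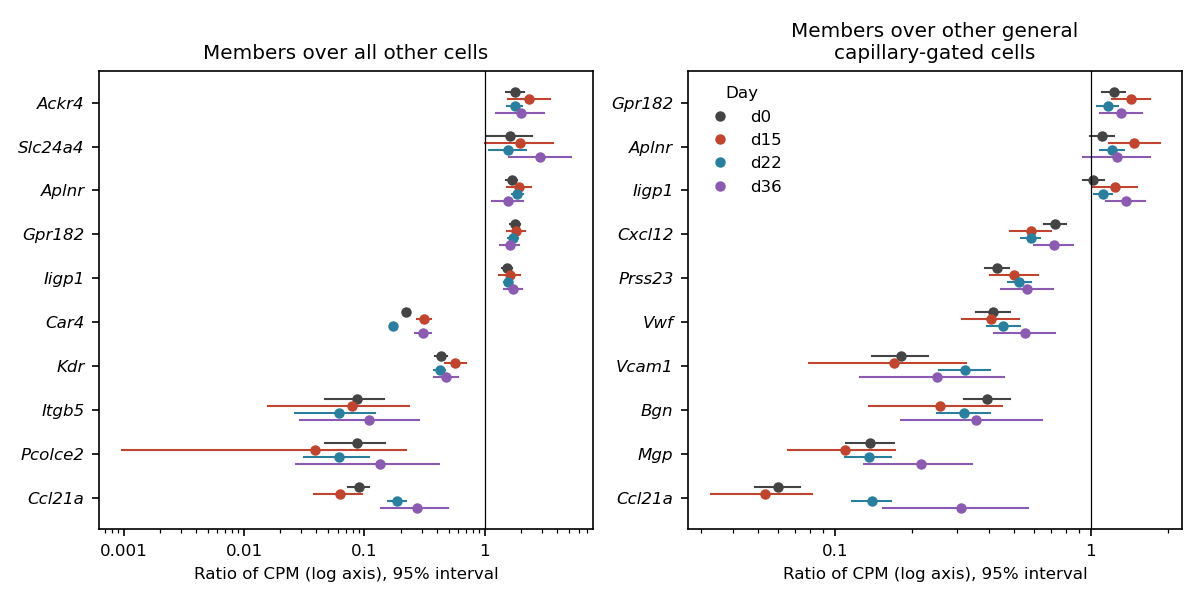
Ratio of CPM, members over all other cells (left panel) and members over other general capillary-gated cells (right panel), for 10 genes each on a log axis, with 1 point and its 95% interval per day. Gpr182, Aplnr and Ackr4 lie right of 1 on the left, Gpr182 moves closer to 1 on the right (mean log2 ratio 0.35), and Vcam1, Mgp and Ccl21a lie left of 1 at all 4 days.

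The mirror rule gave 302, 95, 352 and 85 cells with at least 2 set B genes and more of set B than of set A, here called Slc6a6 Wfdc1 cells. Of 6737 genes measured, none was 1.5-fold higher in members at all 4 days (0.0%) and 3 were lower (0.0445%). Prss23, a secreted serine protease listed among venous genes, was at 228, 203, 220 and 188 CPM in members, against 449, 326, 508 and 398 CPM in Slc6a6 Wfdc1 cells (log2 ratio -0.98 ± 0.22, SD, n = 4 days). Cxcl12, the chemokine that binds CXCR4 and a gene of arterial EC, was at 318, 298, 340 and 350 CPM in members, against 481, 659, 714 and 573 CPM (-0.88 ± 0.27). Bgn was at 64.4, 26.6, 40.8 and 26.0 CPM in members, against 105, 79.9, 74.7 and 105 CPM (-1.27 ± 0.60), and its mean log2 ratio was 0.76 after thinning to 500 molecules. Prss23 and Cxcl12 showed no overlap between the sets of cells, as choosing genes lower at all 4 days would favour. At a ratio of 1.25, 5 genes were lower in members (0.0742%), the 3 above with Adam15, a membrane metalloprotease, and Lrg1, and 1 was higher (0.0148%). The higher gene, named after its value was seen, was Cyp4b1, a cytochrome P450, at 1810, 2110, 2011 and 1955 CPM in members, against 1099, 1419, 1197 and 1320 CPM (0.65 ± 0.10). Dll4, a Notch ligand, was at 195, 213, 192 and 194 CPM in members, against 112, 160, 113 and 112 CPM, and its log2 ratio of 0.69 ± 0.19 did not pass the rule. Of 8 Notch genes measured, 4 lay above 1 at all 4 days, where 9.46% of measured genes did. The class II genes went the other way here: 4 of 6 lay below 1 at all 4 days (8.0% of all measured genes did), and Cd74 was at 1316, 399, 2786 and 578 CPM in members, against 1524, 446, 3022 and 943 CPM.

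Levels of 9 genes were also taken by the number of set A genes detected among all general capillary-gated cells, with set B left aside. These genes were picked for differences between members and other cells, which favours a trend here in advance. Gpr182 was the only one of the 5 higher genes whose mean over days rose at each step. The means of Cxcl12, Vwf, Prss23 and Bgn fell at each step. Single days broke these orders. At d15, Gpr182 went from 486 CPM with 3 set A genes to 357 CPM with 4. Prss23 rose there over 2, 3 and 4 set A genes, at 178, 240 and 273 CPM. Gpr182 averaged 241 ± 10.9, 309 ± 27, 357 ± 40.9, 386 ± 67.8 and 427 ± 113 CPM in cells with 0, 1, 2, 3 and 4 set A genes (SD, n = 4 days). Cxcl12 averaged 575 ± 60.3, 468 ± 72.9, 413 ± 40.4, 272 ± 44.1 and 191 ± 97.3 CPM. Vwf averaged 412 ± 103, 227 ± 28.6, 144 ± 15.2, 124 ± 43.0 and 81.4 ± 41.4 CPM. Iigp1 averaged 322 ± 62.2, 345 ± 73.02, 345 ± 46.9, 446 ± 83.8 and 358 ± 127 CPM in the same order, and Aplnr, Ackr4 and Slc24a4 also broke the order once each. Depth rose along this order as well, with medians at d0 of 1528 molecules in cells with 0 set A genes and 3274 in cells with 4, and its part was not tested. The last class was small, with 14 to 79 cells a day.

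**Figure D3:**
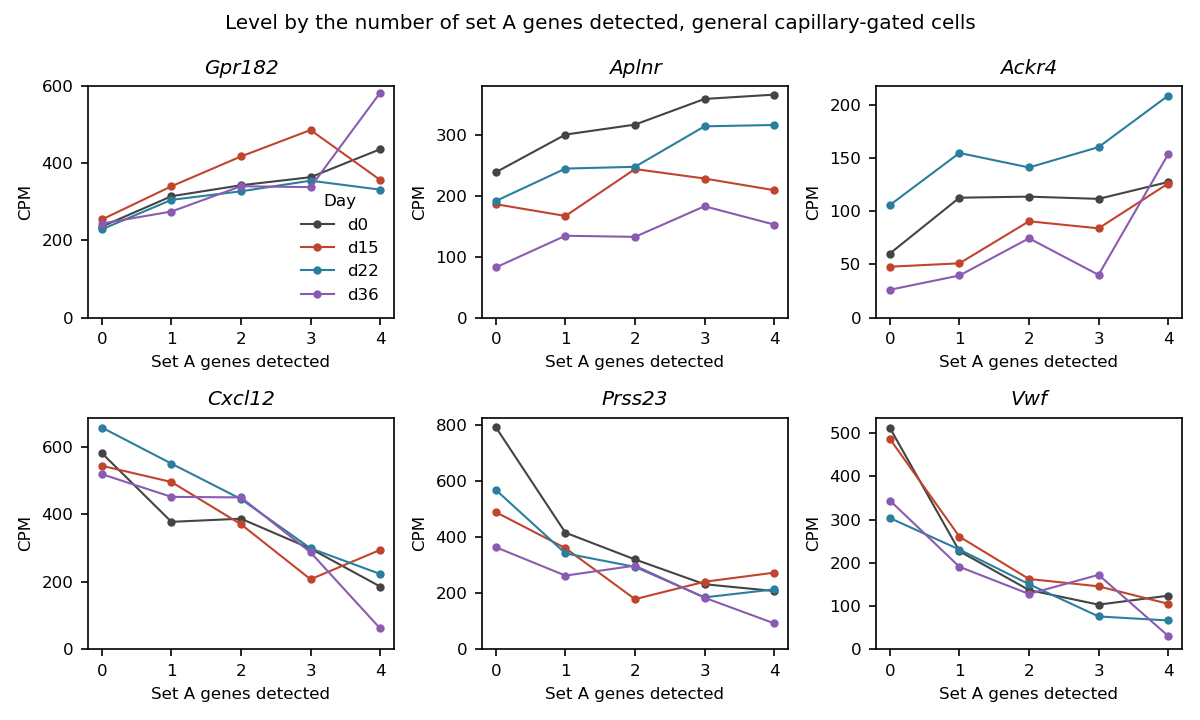
CPM (y axis) of 6 genes outside the gate by the number of set A genes detected (x axis, 0 to 4) in general capillary-gated cells, 1 line per day. Mean levels of Gpr182 go up from 241 to 427 CPM and those of Cxcl12 and Vwf go down, but single days break this order. The points at 4 genes rest on 14 to 79 cells.

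Nearest cells were also found without the gate genes. Among the 15 nearest cells of a member, found over 2000 variable genes with the gate genes left out, 41.1, 36.4, 39 and 33.2% were members at d0, d15, d22 and d36. Members made up 28.7, 22.5, 28.1 and 18.7% of all cells of those days. Slc6a6 Wfdc1 cells had almost as many members among their neighbours, at 37.3, 34.4, 35.4 and 29.6%. Aerocyte-gated cells had 4.6, 2.8, 2.9 and 3.7%. Gated cells in neither set had 32.9, 24.8, 33.0 and 19.1% and were the larger share of a member's own neighbours at d15, d22 and d36 (48.9, 44.2 and 54.9%, and 38.2% at d0). They made up 38.9, 55.2, 40.9 and 57.4% of all cells. At d15 and d36, members (medians 1573 and 1632 molecules) and Slc6a6 Wfdc1 cells (1569 and 1606) were deeper than the gated cells outside the members (966 and 836). The part of depth in these shares was not tested.

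Outside the gate, few genes of lipolysis and fatty acid uptake differed between members and other gated cells. The rule fixed the excess of Lpl, and Gpihbp1, a gate gene too, was higher in members at all 4 days. Of 16 measured genes of lipolysis and fatty acid uptake, none was higher in members than in other gated cells by the rule and 1 was lower, with a median log2 ratio of 0.04. At all 4 days, 3 lay above 1 and 2 below, where 11.6 and 8.95% of all measured genes did. The lower one was Fabp4, a fatty acid binding protein, at 18.6, 24.7, 37.5 and 15.99 CPM in members, against 116, 316, 112 and 164 CPM in other gated cells (-2.76 ± 0.92, SD, n = 4 days). Cd36, a fatty acid receptor, was at 1465, 2017, 1607 and 2085 CPM in members, against 1376, 1946, 1583 and 1979 CPM (0.06 ± 0.03). Scarb1, the HDL receptor, was at 273, 383, 292 and 274 CPM in members, against 234, 270, 249 and 228 CPM (0.31 ± 0.13). Lmf1, a factor for folding of lipases, was at 38.3, 32.3, 40.8 and 35.98 CPM in members, against 36.6, 46.1, 41.9 and 22.8 CPM. Angptl4, an LPL inhibitor, reached at most 1.90 CPM in members. Of 4 measured genes of natriuretic peptide and cGMP signalling, none passed the rule. Npr1, the receptor that signals through cGMP, was at 190, 112, 125 and 102 CPM in members, against 192, 121, 107 and 92.8 CPM in other gated cells, so the sets overlapped. Of the relatives of Cadm1, Cadm2 and Cadm3 had no molecule in members at any day, and Cadm4 reached at most 0.532 CPM.

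The share of members differed between days in the full data. By day it was 28.7% for d0 (95% interval 27.01 to 30.5), 22.5% for d15 (20.4 to 24.7), 28.1% for d22 (26.6 to 29.7) and 18.7% for d36 (16.9 to 20.7). The days with fewer members were the days of lower depth, and the median of the other gated cells was 966 molecules at d15 and 836 at d36, against 1972 at d0 and 2017 at d22. After each cell was thinned to 500 molecules, the d0 share was 5.69% (4.84 to 6.64), the d15 share 6.79% (5.50 to 8.26), the d22 share 4.83% (4.12 to 5.63) and the d36 share 5.29% (4.18 to 6.60). The order of the days was no longer the same, and d15, which had been below d0, was above it with overlapping intervals. Cells with fewer than 500 molecules could not be thinned, which removed 151 at d15 and 229 at d36. At equal depth the intervals of neighbouring shares overlapped.

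**Figure D4:**
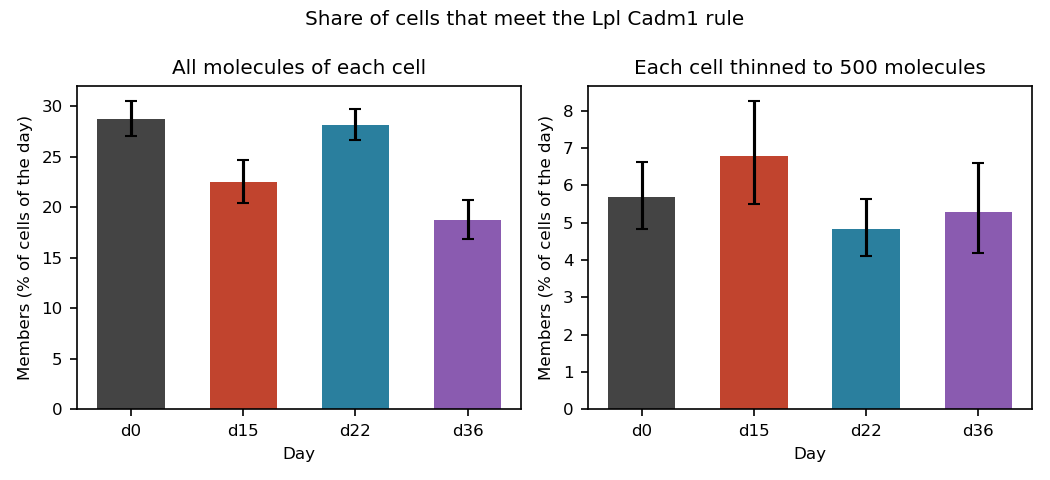
Members as a percent of the cells of each day (bars) with exact 95% intervals (lines), from all molecules (left panel) and after thinning each cell to 500 molecules (right panel, another y scale). The left bars range between 18.7 and 28.7%, and the right bars between 4.83 and 6.79% with a different order of days.

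Between days, members were compared gene by gene at a level of at least 50 CPM in either day and 100 molecules over both. The later day was 1.5-fold higher with an interval that excluded 1 for 185 of 3858 genes (4.8%) and lower for 163 (4.22%) at d15 against d0. The counts were 32 of 3781 genes higher (0.846%) and 67 lower (1.77%) at d22 against d0. They were 151 of 3788 higher (3.99%) and 196 lower (5.17%) at d36 against d0. At d36 against d15, 2 days of like depth, 31 of 2029 were higher (1.53%) and 43 lower (2.12%). The comparisons with d0 share its cells. Both tumour-bearing days also had the shallower libraries, so tumour state and depth cannot be told apart there.

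Class II antigen presentation moved in members with the day. Cd74, the invariant chain, was at 1316, 399, 2786 and 578 CPM in members at d0, d15, d22 and d36. Its ratio to d0 was 0.303 (95% interval 0.262 to 0.349) at d15, 2.12 (2.02 to 2.22) at d22 and 0.439 (0.387 to 0.496) at d36. Of 6 measured class II genes, 5 were lower at d15, 6 were higher at d22 and 4 were lower at d36. Among all measured genes, 4.22% were lower at d15, 0.846% higher at d22 and 5.17% lower at d36. H2-Ab1 had ratios to d0 of 0.738 at d15, 1.77 at d22 and 0.792 at d36, and the first and the last did not pass the rule. Members and other gated cells moved alike, with Cd74 ratios of 0.294, 2.43 and 0.508 in the other gated cells. At 500 molecules per cell, Cd74 was detected in 29.6, 14.4, 40.9 and 16.4% of members at d0, d15, d22 and d36, the same order of days as the CPM. All 13 measured class I genes lay above 1 at d22 against d0, as did 1839 of all 3781 measured genes, and 1 of them, the peptide transporter gene Tap1 (ratio 1.59, 1.37 to 1.85), passed the rule (0.846% of all did).

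Cyp1a1, a cytochrome P450 induced by the aryl hydrocarbon receptor, had the lowest ratio in every comparison with d0. It was at 949, 15.2, 46.3 and 32.0 CPM in members at d0, d15, d22 and d36, and 325 of 767 members held it at d0 against 7 of 339 at d15. Its ratio to d0 was 0.0160 (0.00689 to 0.0316) at d15, 0.0488 (0.0395 to 0.0597) at d22 and 0.0337 (0.0192 to 0.0549) at d36. It was low at all 3 later days, including the post-resection day of full depth. Other gated cells had 648, 26.7, 53.4 and 41.9 CPM and aerocyte-gated cells 1980, 74.2, 79.2 and 70.5 CPM, so the difference was not particular to members. The 250 bases before the Cyp1a1 start in RefSeq (GRCm38.p6, chr9:57697363-57697612, plus strand) are shown because they hold 1 match to the core of the aryl hydrocarbon receptor response element, GCGTG, in capitals. It lies 54 to 50 bases before the start.
Cyp1a1: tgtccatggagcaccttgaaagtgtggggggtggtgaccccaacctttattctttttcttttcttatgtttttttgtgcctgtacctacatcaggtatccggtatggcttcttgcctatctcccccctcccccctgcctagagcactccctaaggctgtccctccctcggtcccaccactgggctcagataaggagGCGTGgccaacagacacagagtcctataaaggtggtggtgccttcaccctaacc
GCGTG or its reverse complement CACGC occurs in 28.2% of the 32851 promoters of this length, so a match is a description and not a binding site.

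Lrg1, a secreted glycoprotein of activated endothelium that acts on TGF-beta signalling, had larger ratios to d0 in members than in the other gated cells. It was at 81.9, 218, 108 and 174 CPM in members at d0, d15, d22 and d36, against 226, 363, 132 and 257 CPM in other gated cells. Members were thus lower than the other gated cells at all 4 days, with d0 the lowest day in members. The ratio to d0 was 2.67 (2.07 to 3.42) at d15 in members and 1.61 (1.42 to 1.83) in other gated cells, a ratio of the ratios of 1.66 (1.26 to 2.18). At d36 it was 2.12 (1.61 to 2.78) in members and 1.14 (0.985 to 1.31) in other gated cells, a ratio of the ratios of 1.87 (1.39 to 2.52). The higher level lay in few cells: Lrg1 was detected in 10.7, 17.4, 12.98 and 15.4% of members, and the highest cell held 15, 23, 16 and 15 molecules. In members with at least 3 set A genes, the d36 ratio was 0.970. At 500 molecules per cell, the shares with Lrg1 were 3.65, 7.03, 3.96 and 6.36% of members. The same shares in other gated cells were 5.22, 8.94, 4.25 and 8.77%, so both sets had higher shares at d15 and d36 than at d0. The 250 bases before the Lrg1 start in RefSeq (GRCm38.p6, chr17:56121947-56122196, minus strand) are shown for the motif of ETS factors, AGGAAG or its reverse complement CTTCCT. The 3 matches, in capitals, lie 125 to 120, 66 to 61 and 29 to 24 bases before the start.
Lrg1: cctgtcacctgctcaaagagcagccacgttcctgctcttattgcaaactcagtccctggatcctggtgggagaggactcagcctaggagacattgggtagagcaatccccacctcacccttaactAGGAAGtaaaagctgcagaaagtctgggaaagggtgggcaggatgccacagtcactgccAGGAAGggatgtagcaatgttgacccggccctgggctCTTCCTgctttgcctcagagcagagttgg
The ETS letters occur in 29.5% of the promoters of this length. The letters of the STAT palindrome TTCNNNGAA, present in 7.02% of promoters, were not in the Lrg1 window, and neither was GCGTG on either strand.

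A few endothelial transcription factors passed the rule in each direction at the tumour-bearing days. Of 26 measured, 3 were higher and 3 lower at d15, and of 25 at d36, 2 were higher and 2 lower (median log2 ratios 0.04 and 0.02). Of all measured genes, 4.8% were higher and 4.22% lower at d15, and 3.99% higher and 5.17% lower at d36. With counts this small, no trait of the list is read from them. Klf2, a transcription factor induced by flow, was at 2334, 3822, 2320 and 4212 CPM in members at d0, d15, d22 and d36. Its ratio to d0 was 1.64 (1.55 to 1.73) at d15 and 1.81 (1.71 to 1.90) at d36, against 1.60 and 1.74 in other gated cells. Foxf1, a transcription factor of lung mesenchyme and endothelium, was at 845, 1664, 856 and 1765 CPM in members, with ratios of 1.97 (1.81 to 2.14) at d15 and 2.09 (1.92 to 2.27) at d36. The d22 levels of both genes lay close to those of d0. Sox18, a transcription factor of vessel and lymphatic development, was lower, with ratios of 0.510 (0.398 to 0.645) at d15 and 0.591 (0.466 to 0.741) at d36, and Erg, an ETS factor of endothelial identity, was at 0.590 (0.417 to 0.817) at d15. Smad6, an inhibitor of BMP signalling, had ratios to d0 of 1.71 at d15 and 2.01 at d36, and Id1, a BMP target, of 1.67 at d15 and 1.44 at d36. Of 13 measured BMP and TGF-beta genes, 2 were higher at d15 (4.8% of all measured genes were) and 4 at d36 (3.99%), and none was lower. Of 5 measured glucocorticoid-induced genes, 3 were higher at d36 (3.99% of all measured genes were), among them the cell cycle inhibitor gene Cdkn1a (1.72, 1.504 to 1.957). Ly6c2, a surface protein also found on monocytes, was at 42.0, 148, 33.3 and 108 CPM in members, with no cell at d15 or d36 above 1 molecule. Egfl7, a secreted endothelial protein, was at 1939, 3004, 2012 and 3158 CPM in members, with ratios to d0 of 1.55 at d15 and 1.63 at d36. In other gated cells, the d15 ratios were 1.97 for Foxf1, 0.464 for Sox18, 1.72 for Smad6, 1.519 for Id1 and 1.515 for Egfl7. These genes thus moved alike in both sets at d15. The part of depth in the levels at d15 and d36 was not tested.

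Cav2, Thbd and Npr1 were each lower than at d0 in at least 2 of the 3 later days, while most other genes of their lists did not pass the rule. Cav2, a caveolin, was at 1086, 562, 807 and 516 CPM, with ratios to d0 of 0.517 (0.456 to 0.585) at d15 and 0.475 (0.416 to 0.541) at d36. Cav1, its partner, was at 1512, 1505, 1476 and 1393 CPM and did not pass the rule at any day. Thbd, the thrombin receptor thrombomodulin, was at 1075, 755, 644 and 540 CPM, with ratios of 0.599 (0.559 to 0.642) at d22 and 0.502 (0.441 to 0.570) at d36, and its d15 ratio of 0.703 did not pass the rule. Of 8 measured coagulation genes, 1 was higher and 0 lower at d15, 0 and 1 at d22, and 1 and 2 at d36. Among all measured genes, 4.8% were higher and 4.22% lower at d15, 0.846 and 1.77% at d22, and 3.99 and 5.17% at d36. The higher coagulation gene at d15 was Plat, tissue plasminogen activator, with a ratio of 1.53 (1.11 to 2.07). Npr1 was at 190, 112, 125 and 102 CPM, with ratios of 0.588 (0.439 to 0.776) at d15, 0.657 (0.559 to 0.771) at d22 and 0.535 (0.391 to 0.720) at d36, and it was the 1 of 3 measured genes of its list to pass on each day. These 3 genes moved alike in the other gated cells, with d36 ratios of 0.510 for Cav2, 0.567 for Thbd and 0.483 for Npr1. Of the lipolysis genes measured, Cav2 was the only 1 of 10 past the rule at d15 and at d36, and none of 11 passed at d22.

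**Figure D5:**
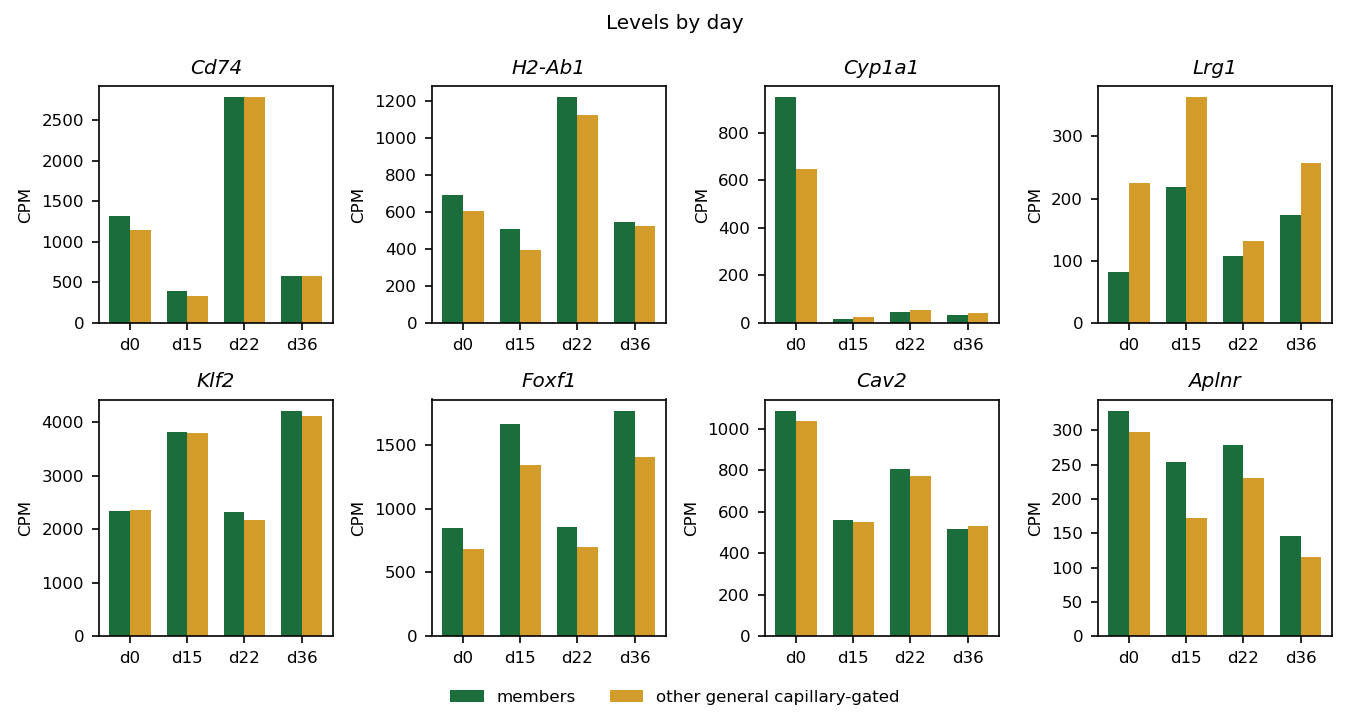
CPM of 8 genes by day (x axis) in members and in other general capillary-gated cells, as bars of 1 pooled sample each with no error bar. Cd74 and H2-Ab1 are highest at d22, Cyp1a1 falls to 46.3 CPM or less in members after d0, Klf2 and Foxf1 are high at d15 and d36, and Lrg1 is lower in members than in other gated cells at all 4 days.

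The metastasis day and the primary tumour day were close in depth, and members differed there in few genes. Aplnr was at 146 CPM at d36, against 254 CPM at d15 (ratio 0.574, 0.425 to 0.769), and the other gated cells had a ratio of 0.671. Irf9, part of the type I interferon transcription complex, was at 148 CPM at d36, against 81.6 CPM at d15 (1.81, 1.23 to 2.71), while the other gated cells had 0.981 (ratio of the ratios 1.85, 1.19 to 2.88). In members with at least 3 set A genes the Irf9 ratio was 0.921. Egr1, an immediate early transcription factor, had a ratio of 1.502 (1.19 to 1.91) in members and 0.951 in other gated cells. Of 14 measured interferon genes, 3 were higher (1.53% of all measured genes were). The median log2 ratio was 0.29 over the list and 0.00 over all measured genes. Hmgb2, a chromatin protein high in dividing cells, had a ratio of 1.72 (1.17 to 2.57), with 15 of its molecules in 1 cell. Kit, the receptor of stem cell factor and a general capillary gene, was at 156 CPM at d36, against 241 CPM at d15 (0.647, 0.482 to 0.864), but its ratio was 1.07 after thinning to 500 molecules.

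Few members held 2 or more of the cell cycle genes named next. Molecules of the full list of 19 proliferation genes were found in 672, 231, 795 and 225 members at d0, d15, d22 and d36, with Stmn1 the top gene. At least 2 of Mki67, Top2a, Birc5, Ube2c and Cdk1 were detected in 13 (1.70%) of the d0 members, none of the d15 members, 6 (0.660%) of the d22 members and 1 (0.328%) of the d36 members. The exact 95% interval of the 0 of 339 at d15 reaches 1.08%, for members with such molecules and not for dividing members, since depth was lower at d15. The share was 0.970% at d0 in the other gated cells.

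Markers of other cell types were found in members, those of epithelium in many cells. Leukocyte, fibroblast and mesothelial markers each summed to at most 7.98 CPM at every day, and mural markers to 11.4 to 26.0 CPM. Macrophage markers summed to 23.9, 20.9, 31.5 and 82.0 CPM, mostly Lyz2, and at d36 1 cell held 25 of the 41 molecules. Epithelial markers summed to 150, 123, 378 and 1467 CPM at d0, d15, d22 and d36. They were detected in 245 of 767 members at d0, 56 of 339 at d15, 410 of 909 at d22 and 105 of 305 at d36. At d22, 1 member held 269 of the 817 epithelial molecules, and at d36 1 member held 615 of the 734. The highest ratios of d22 and d36 to d0 were of this kind: Ager, a gene of alveolar type 1 cells, had a ratio of 13.4 at d22 with 267 of 307 molecules in 1 cell, and Sftpc, a surfactant gene of alveolar type 2 cells, had a ratio of 12.2 at d36 with 444 molecules in 1 cell. Doublets were not removed, and the size of both ratios rests largely on those single cells. The d22 ratio of Sftpc was 1.64 (1.36 to 1.99), with 313 molecules in 276 cells and at most 4 in 1 cell.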

How the data were processed

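The deposited table holds counts, UMIs per gene and cell, and the submitters' processing notes name mm10 as build and Cell Ranger 2.1.1. For the combination of a day's libraries and the filter on cells, the sources used here give nothing. All 9036 columns of cells were used, and 10850 of the 28692 gene symbols had a total of 0. Because deposited values piled up at multiples of 4, each was divided by 4 and rounded up, a step chosen after seeing the data, and the planned thinning to 2000 UMIs was done as 500 molecules (seed 1). The pattern may mean that the deposited counts are not unique molecules, which was not tested. Doublets were not removed.

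Molecules were summed over the cells of each set and day and divided by the total to give CPM. Ratios have exact binomial 95% intervals, computed in Python 3.11.15 with numpy 2.4.6, scipy 1.17.1 and pandas 2.3.3. Scale factors came from TMM in edgeR 4.0.16 as an alternative, neighbours from scikit-learn 1.9.0 (30 components), and figures from matplotlib 3.10.9. The counting of calls was run on simulated data with changes larger than 1.5-fold and counting error only. Without spread between cells or animals, that run cannot show how reliable the calls are. Sets of cells were compared within each day, and members between days, with the thresholds given beside each count. No test could be run on 1 pooled sample a day.

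The members, gene lists, size rules and tests were chosen with earlier results of these data known. Genes named in the text were the gate genes, the highest and lowest mean ratios past the rule (12 each way against all other cells, 8 each way otherwise), the 2 measured members of each list with the largest ratios, and Lrg1, Cd74, Cyp1a1, Apln, Aplnr, Kit, Esm1, Vcam1, Thbd and Klf2. Among the highest and lowest ratios, ribosomal, mitochondrial, immunoglobulin and predicted genes and Xist were passed over. Other genes that passed or narrowly missed a rule, or that show the role of a list, were named after their values were seen. Promoter sequences are from RefSeq (GRCm38.p6, 250 bases) and were found for both genes shown.

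The alternatives were thinning, TMM scaling, no filter on low values, the mean of each cell's own CPM, a strict cell filter (at least 300 genes, at most 10% mitochondrial and at most 2% other-type counts), leaving out the 2% of cells with the most UMIs, cells weighted by depth, at least 3 set A genes, and leaving out each day. Values as deposited, a ratio of 1.25 and a 99.9% interval were added after seeing the data.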

Additional observations from a re-analysis of the deposited data

Results flagged for a closer look

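In 4 genes, members and other general capillary-gated cells lay on opposite sides of 1 between the same days, with both intervals excluding 1. With 1 pooled sample per day, the differences were not tested. Ager, the alveolar type 1 cell gene, had a d22 over d0 ratio of 13.36 in members and 0.570 in other gated cells, and 267 of its 307 molecules in members at d22 lay in 1 cell. Lrg1 had a d22 over d0 ratio of 1.317 (95% interval 1.07 to 1.63) in members and 0.585 (0.519 to 0.660) in other gated cells. Cd9, a tetraspanin, had a d36 over d0 ratio of 1.125 in members and 0.944 in other gated cells. Smad7, an inhibitor of TGF-beta signalling, had a d36 over d15 ratio of 1.356 in members and 0.830 in other gated cells.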

How the results depend on the processing

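No paired analysis was possible because the cell names carry no library number and each day is 1 pooled sample. The share of members at d0, d15, d22 and d36 was 5.69, 6.79, 4.83 and 5.29% after thinning, and 13.6, 8.16, 11.1 and 6.39% with at least 3 set A genes.

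Against all other cells, 5 genes were higher and 92 lower. After thinning the counts were 1 and 26, with each cell's own CPM 1 and 58, and with 99.9% intervals 2 and 54. The higher count was 2 without the deepest 2% of cells, 0 with weighting by depth, 13 with values as deposited and 35 at a ratio of 1.25. Leaving out a day gave 5 to 26 higher and 91 to 135 lower, with 20 higher without d15 and 26 without d36.

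Against other gated cells, 0 were higher and 26 lower. The higher count was 1 at a ratio of 1.25 and 0 to 1 without a day. The lower count was 1 after thinning, 51 with values as deposited, 14 with 99.9% intervals and 31 to 51 without a day (51 without d36).

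Against Slc6a6 Wfdc1 cells, 0 were higher and 3 lower. The higher count was 1 each with TMM scaling, own CPM, weighting by depth and a ratio of 1.25, 8 with values as deposited and 0 to 3 without a day (3 without d15). The lower count was 0 after thinning, 1 with own CPM, 11 with values as deposited, 5 at a ratio of 1.25, 1 with 99.9% intervals and 3 to 7 without a day (7 without d15, 5 without d22 and 5 without d36).

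Between days, higher and lower counts were 185 and 163 (d15 over d0), 32 and 67 (d22 over d0), 151 and 196 (d36 over d0), and 31 and 43 (d36 over d15). In that order they were 44 and 66, 21 and 35, 43 and 35, and 16 and 9 after thinning. They were 473 and 409, 226 and 407, 404 and 419, and 176 and 238 without the filter on low values. They were 376 and 320, 145 and 274, 310 and 332, and 114 and 104 at a ratio of 1.25. They were 100 and 52, 19 and 53, 89 and 57, and 12 and 9 with 99.9% intervals. With at least 3 set A genes, d15 over d0 had 109 higher, d36 over d0 112 lower, and d36 over d15 17 and 22. With values as deposited, d36 over d0 had 255 higher, and d36 over d15 180 and 270.

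Values that changed sides after thinning were those of Bgn against Slc6a6 Wfdc1 cells (log2 ratio 0.76), Ager at d22 over d0 (ratio 0.623), Dll1 at d36 over d0 (0.937), and Sugt1 (0.807), Kit (1.07) and Lifr (1.11) at d36 over d15. With at least 3 set A genes, Lrg1 at d36 over d0 was 0.970 and Irf9 at d36 over d15 was 0.921. The causes were not tested, but thinning and fewer cells leave fewer molecules by construction. Of single genes between days, 2422 values kept their direction and side, 211 fell below the rule, 125 passed it newly, 55 moved and 7 changed sides. Within days the numbers were 1817, 88, 26, 48 and 1.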
